A study of Homo sapiens with 60 samples.

Results

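The genes followed here are 10 genes of the circadian clock: the repressors PER1, PER2, PER3, CRY1 and CRY2, the nuclear receptors NR1D1 and NR1D2, the output factors DBP and TEF, and the repressor BHLHE40. They were picked by symbol from the 57665 genes of the deposited tables, with earlier results of these data known. All 10 were among the 18040 genes with enough counts to be tested. The comparison asked how far each gene changed over hours in the same way at every dose of a drug, and how far it changed with the dose.

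The cells were U2OS, an established human osteosarcoma line with a wild-type genotype label, and every group carried the same stable construct, Dmr-PERK. In Dmr-PERK the kinase domain of mouse PERK is joined to a DmrB domain, which pairs when the small molecule AP20187 (the dimerizer) is present. The paired kinase phosphorylates eIF2 alpha and starts the integrated stress response (ISR), a programme that slows translation while raising the activator ATF4. AP20187 was given at 0.01, 0.2 or 3 nM and the wells were collected 1, 2, 4, 8, 16 and 24 h later, with n = 3 libraries in each of the 18 combinations, and 2 untreated sets of 3 libraries, UT and UT 2, were labelled 0 h (set 1 and set 2 below). The middle dose is written here as the design text rounds it, and the labels of the wells and the legends of the plots give it to more digits. The labels do not say that replicate wells came from separate cultures, so p-values measure the spread between these libraries, which may be technical. Wells were seeded the day before the drug and AP20187 was added at different intervals ahead of collection. No untreated wells were matched to each interval. If the wells were collected at different hours, hours of drug and hours in the dish cannot be told apart here. If they were collected together, the hour at which the drug was added differed between intervals instead. All results come from 1 engineered line, and RNA was taken from whole wells, so that fewer expressing cells and less RNA per cell cannot be told apart.

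Cells keep a clock in which the activators CLOCK and BMAL1 (gene ARNTL) bind E-box sequences and switch on the PER, CRY, NR1D, DBP and BHLHE40 genes. PER and CRY proteins then block the activators, the NR1D receptors (REV-ERB alpha and beta) repress ARNTL, and BHLHE40 competes for the E-box, so that each gene is turned down by products of its own loop. DBP and TEF are PAR bZIP factors that pass the rhythm on through D-box sequences, and the ARNTL and ROR genes peak when the PER and DBP genes are low. U2OS is widely used as a clock model because its loop can be set in step by serum or by a hormone pulse.

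These binding sequences were looked for in the promoters of the members, in the 250 bases upstream of each RefSeq transcription start on GRCh38.p14, 14 windows in all. The E-box CACGTG was found in 5 of the 14 windows and in 4 of the 10 genes (PER1, NR1D2, TEF and BHLHE40), against 6.34% of the 35116 windows of the same length in the RefSeq table. The D-box, searched as TTATGTAA or TTACGTAA on both strands, was found in PER3 and NR1D2, against 0.94% of windows. The ROR core TAGGTCA, to which NR1D receptors also bind, was found in 1 gene, CRY2, against 1.61% of windows. Neither the cAMP element TGACGTCA (1.65% of windows) nor the ATF4 sequences TGATGCAA and TGATGAAA (1.7%) was matched in any of the 14 windows. The 4 stretches below hold the E-box and D-box matches of genes whose levels are described next, with the matches in capitals and any annotated exon left out. PER1 is at chr17:8152436-8152654 on the minus strand, PER3 at chr1:7784041-7784290, NR1D2 at chr3:23945871-23946120 and TEF at chr22:41381692-41381928, the last 3 on the plus strand. The stretches of PER1, NR1D2 and TEF lie inside the gene as GENCODE 29 draws it, ahead of a start that is downstream of the outermost one.
PER1: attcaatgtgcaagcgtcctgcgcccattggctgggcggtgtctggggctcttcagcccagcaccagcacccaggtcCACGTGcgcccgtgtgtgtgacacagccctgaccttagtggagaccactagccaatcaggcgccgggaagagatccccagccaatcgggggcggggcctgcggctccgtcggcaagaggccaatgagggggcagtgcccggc
PER3: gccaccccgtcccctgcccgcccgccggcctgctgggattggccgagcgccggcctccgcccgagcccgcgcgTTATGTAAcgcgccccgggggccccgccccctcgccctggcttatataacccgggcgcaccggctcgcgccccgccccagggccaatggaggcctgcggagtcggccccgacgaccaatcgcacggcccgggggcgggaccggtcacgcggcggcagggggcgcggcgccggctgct
NR1D2: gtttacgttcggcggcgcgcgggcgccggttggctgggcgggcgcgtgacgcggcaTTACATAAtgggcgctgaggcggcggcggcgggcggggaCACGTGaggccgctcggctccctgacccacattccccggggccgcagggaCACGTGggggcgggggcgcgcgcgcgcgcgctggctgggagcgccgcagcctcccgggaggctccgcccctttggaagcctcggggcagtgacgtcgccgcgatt
TEF: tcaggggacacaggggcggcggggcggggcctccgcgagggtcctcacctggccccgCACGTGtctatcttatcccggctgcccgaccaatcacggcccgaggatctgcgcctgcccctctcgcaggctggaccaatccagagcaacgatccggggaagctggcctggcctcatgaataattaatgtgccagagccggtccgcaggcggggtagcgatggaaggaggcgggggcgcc
A match is a description of letters, and binding was not measured in these data. The 6-base capital runs in PER1, NR1D2 and TEF are E-boxes, and the 8-base runs in PER3 and NR1D2 are D-boxes, the latter read on the opposite strand.

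The 60 libraries held 5598803 to 28436445 counts and fell into a shallow set of 39 (untreated set 1, 0.01 and 0.2 nM) and a deep set of 21 (untreated set 2 and 3 nM). A difference between 3 nM and a lower dose at one time therefore cannot be told apart from the library set, while 0.2 against 0.01 nM and every change over time within a dose stay inside one set. Between the untreated sets themselves, PER2 was higher in set 2 by 0.81 ± 0.10 (log2, SE) and NR1D1 was lower, at -0.63 ± 0.06, and 7 of the 10 members were called different, against 28.9% of all genes tested. The mesenchymal markers VIM, COL1A1, SPARC and RUNX2 were present in every group, whereas COL1A2 and SP7 stayed under 1 TPM in all groups. The 8 mesenchymal markers summed to between 1589 and 5499.9 TPM, the 7 epithelial ones to between 607 and 1261 TPM, mostly KRT18 and KRT8. Endothelial and blood markers summed to at most 2.56 and 7.65 TPM, with CD3E and HBB listed at 0 in at least 1 group and CD68 the highest of them. Mitochondrial transcripts took 10.5% ± 0.694 of the counts in untreated set 1 and 5.49% ± 0.0729 in set 2 (SD, n = 3), and their part in the differences from untreated was not tested.

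In untreated cells, where TPM (abundance per transcript length) allows genes to be set side by side, BHLHE40 was the most abundant member at 156 TPM, the mean of both set means, with libraries from 142 to 170.5. PER1 followed at 87.2 TPM (70.9 to 95.5). NR1D1 at 34.5, NR1D2 at 33.0, DBP at 25.5, PER3 at 24.3, CRY1 at 21.9 and TEF at 15.4 TPM formed a run in which the libraries of each gene overlapped those of the next. CRY2 at 9.92 TPM (6.58 to 13) overlapped TEF, and PER2 at 3.83 TPM (2.33 to 5.50) lay below all of them. The other values below are CPM, counts scaled to a common library size by TMM, which follow 1 gene across libraries and are not compared between genes.

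Time took the largest part of the variation of every member, and dose on its own took little of most of them. All 10 members differed over the 6 times after averaging the 3 doses, against 89.8% of all genes tested, so that the count itself says little. By size, 8 of 10 had a range over times of at least 1 log2 unit, which is 2-fold, against 24.6% of genes. Since the members were chosen with earlier results of these data known, this comparison describes them and is not a test of clock genes. The median range over times was 2.07 for the members and 0.63 for all genes tested. By dose, 9 of 10 members were called (background 82.5%) but 1 alone, PER2, had a range over doses of at least 1 log2 unit (background 4.94%). The median range over doses was 0.62 for the members and 0.32 for all genes. The dose-by-time test called 10 of 10 members (background 70.4%).

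The widest ranges over time were those of BHLHE40 at 3.05, PER1 at 3.04 and DBP at 2.67 log2 units. PER2 spanned 2.48, TEF 2.19, NR1D1 1.95, PER3 1.81 and CRY2 1.61. NR1D2 at 0.97 and CRY1 at 0.88 stayed under 2-fold. TEF was the member with the smallest range over doses, 0.03 log2 units, and the one that did not pass the dose test (edgeR adjusted p = 0.74). Without the 24 h libraries the range of TEF over doses was 0.46 and passed, and with no filter on low counts it was 0.10 and passed too (adjusted p = 0.0143).

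When the differences among the 18 treated group means of log2 CPM were split, time shared by all doses took a median of 69.0% over the members, dose 6.95% and the dose-by-time part 18.4%. Over all genes tested the medians were 53.4%, 19.3% and 19.2%, and time was the largest part in 10 of 10 members and in 66.6% of all genes. BHLHE40 followed time most closely, with 91.8% of its variation, ahead of CRY2 (84.8%) and PER1 (83.3%). CRY1 was split almost evenly between time (46.5%) and dose (45.7%) when all doses entered. The highest dose cannot be told apart from the deep library set. Within the shallow set, with the lower doses alone, CRY1 had 75.2% for time and 13.35% for dose. The dose part of NR1D2 was 27.2% over all doses and 9.28% within the shallow set. Leaving out the highest dose also narrows the doses, so the part of the library set in this cannot be told. DBP had the largest dose-by-time part, 41.1% over all doses and 22.7% within the shallow set. Among genes of the ISR in the split over all doses, time took 81.5% for ASNS, asparagine synthetase, and 64.4% for TRIB3, a pseudokinase induced by ATF4. It took 61.55% for ATF4 itself and 61.53% for CHAC1. DDIT3, the stress factor CHOP, stood apart, with 7.30% for time and 84.6% for dose. DDIT3, ATF4 and CHAC1 were added here after their values had been seen.

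**Figure D1:**
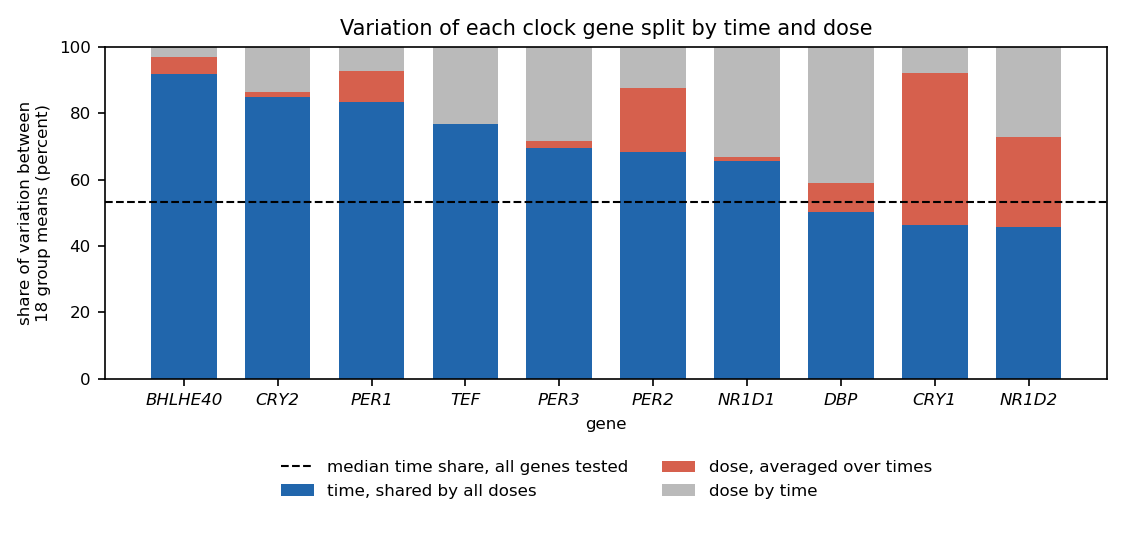
Stacked bars give, for each clock gene, the percent of the variation among the 18 treated group means of log2 CPM that falls to time, to dose and to dose by time, and the dashed line is the median time part over all genes tested (53.4%). BHLHE40 has the tallest time part, CRY1 has nearly equal time and dose parts, and DBP has the tallest dose-by-time part. The dose parts take in the highest dose, which cannot be told apart from the library set.

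Most members were lower at 16 h than at 1 h whatever the dose. From 1 h to 16 h, 9 of 10 members (all but CRY1) fell at each of the 3 doses, against 16.8% of all genes. From 1 h to 8 h, 8 fell at all 3 doses (background 16.4%) and 1, CRY1, rose (background 18.6%). By 4 h the fall at all doses held for 4 members, PER1, PER3, DBP and BHLHE40 (background 15%). The early step from 1 to 2 h was a rise at all doses for PER2, CRY1 and CRY2 (3 of 10, background 9.56%) and a fall for DBP (1 of 10, background 5.28%). At 24 h, 4 members, PER1, PER2, CRY1 and BHLHE40, were still below their 1 h level at all 3 doses (background 11.6%).

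**Figure D2:**
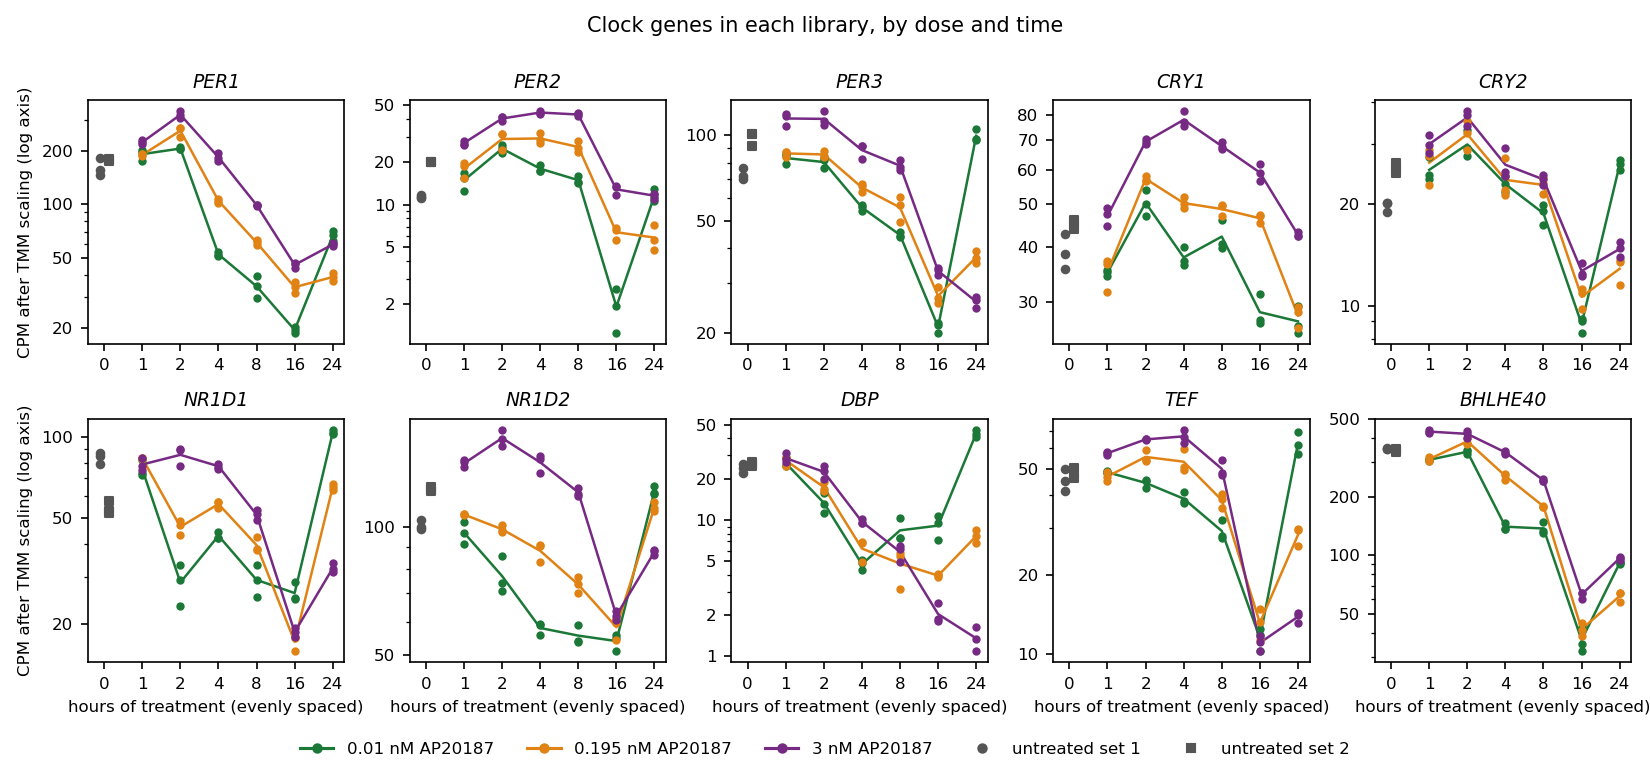
Each panel is 1 clock gene, with CPM after TMM scaling on a log axis against hours of treatment (evenly spaced, not to scale). Points are single libraries, lines join the means of 3 libraries at each dose, and grey symbols at 0 h are the untreated sets. In 9 panels the means at 16 h are below those at 1 h at each dose. At 24 h the 0.01 nM libraries of PER1, PER3, CRY2, NR1D1, NR1D2, DBP and TEF lie above those of the other doses.

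PER1, a PERIOD repressor that is also switched on early by serum and stress signals, fell furthest from 1 to 16 h among the PER and CRY genes at each dose. At 0.01 nM it stood at 198, 201 and 176 CPM in the 3 libraries at 1 h, 54.01, 51.6 and 50.8 at 4 h and 19.5, 20.2 and 18.9 at 16 h. At 3 nM the libraries held 217, 224 and 229.9 CPM at 1 h, 305, 319 and 335 at 2 h and 43.9, 46.1 and 46.5 at 16 h. The 16 h libraries lay below every 1 h library at each dose. The change from 1 to 16 h was -3.30 ± 0.08 at 0.01 nM, -2.47 ± 0.07 at 0.2 nM and -2.30 ± 0.05 at 3 nM (log2, SE). At 4 h the doses were far apart: 0.2 nM held 102, 104 and 107 CPM and 3 nM 175, 195 and 182, each dose without overlap with the one below.

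PER2, the least abundant member and the one with the widest range over doses, rose before it fell. At 0.01 nM it went from 16.6, 15.3 and 12.5 CPM at 1 h to 25.2, 26.1 and 22.9 at 2 h and 2.55, 1.94 and 1.26 at 16 h. At 3 nM it held 26.3, 28.2 and 26.8 CPM at 1 h, 44.3, 45.3 and 43.5 at 4 h, 43.9, 41.96 and 43.00 at 8 h and 11.7, 13.4 and 13.2 at 16 h. At 8 h the 0.01 nM libraries (16.00, 14.1 and 14.4 CPM) lay within the range of their 1 h libraries, while at 3 nM every 8 h library lay above every 1 h library. From 8 h to 16 h the mean fell from 42.95 ± 0.966 to 12.8 ± 0.925 CPM (SD, n = 3) at 3 nM and from 25.4 ± 2.25 to 6.39 ± 0.63 at 0.2 nM. Averaged over times, PER2 was higher at 3 than at 0.01 nM by 1.18 ± 0.04, and at 0.2 than at 0.01 nM, within the shallow set, by 0.44 ± 0.06.

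PER3, a further PERIOD family member, did not pass the test between 1 and 2 h at any dose. Its libraries held 85.6, 78.95 and 84.8 CPM at 1 h and 20.1, 21.7 and 21.4 at 16 h at 0.01 nM, and 108, 119 and 117 and 32.1, 33.6 and 34.00 at 3 nM. The change from 1 to 16 h was -1.98 ± 0.08 at 0.01 nM, -1.67 ± 0.07 at 0.2 nM and -1.79 ± 0.05 at 3 nM. At 24 h the doses parted, with 97.3, 95.9 and 105 CPM at 0.01 nM, 36.9, 35.3 and 39.1 at 0.2 nM and 24.6, 26.3 and 26.8 at 3 nM. No library of one dose overlapped another at that time, and the order was the reverse of that at 4 and 8 h.

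CRY1, a cryptochrome that acts late in the repressive phase, was the exception among the members. It rose from 1 to 2 h by 0.53 ± 0.07 at 0.01 nM, 0.70 ± 0.06 at 0.2 nM and 0.56 ± 0.04 at 3 nM, and no member of the set had a smaller range over time. At 16 h it held 26.8, 27.3 and 31.2 CPM at 0.01 nM, 47.3, 46.9 and 45.3 at 0.2 nM and 56.4, 61.9 and 59.01 at 3 nM, so that each dose lay above the one below without overlap. Against 1 h, CRY1 at 16 h had fallen at 0.01 nM (-0.30) and risen at 0.2 nM (0.40) and 3 nM (0.33). None of these CRY1 changes was called by limma on TPM, where they were -0.21, 0.18 and 0.03 on the log2(TPM + 0.5) scale. Its paralogue CRY2 moved with the PER genes instead. CRY2 held 28.9, 32.3 and 35.2 CPM at 2 h and 9.79, 11.2 and 10.9 at 16 h at 0.2 nM, and its change from 1 to 16 h was -1.51 ± 0.12 at 0.01 nM, -1.32 ± 0.11 at 0.2 nM and -1.25 ± 0.07 at 3 nM.

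NR1D1, which encodes REV-ERB alpha, stood well apart between doses at 2 h. At that time its libraries held 33.3, 29.2 and 23.5 CPM at 0.01 nM, 48.6, 43.1 and 46.8 at 0.2 nM and 77.6, 89.8 and 89.4 at 3 nM, while at 1 h they had held 82.03, 73.1 and 71.9, 83.3, 83.3 and 82.9 and 78.1, 74.9 and 83.5. The 2 h groups did not overlap each other, whereas at 1 h the 3 nM libraries overlapped those of both lower doses. From 1 to 2 h NR1D1 fell by 1.41 (SE 0.08) at 0.01 nM and by 0.85 (SE 0.07) at 0.2 nM on the log2 scale. At 3 nM the change was 0.12 ± 0.05 and was not called (edgeR adjusted p = 0.0655), though it passed without replicate 3 of 1 h (0.16) or without replicate 1 of 2 h (0.18). At 16 h all doses were low, with 24.9, 28.7 and 25.02 CPM at 0.01 nM, 17.9, 17.97 and 15.9 at 0.2 nM and 18.8, 17.99 and 19.4 at 3 nM.

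NR1D2, which encodes REV-ERB beta, had the same order of doses at 4 h over a smaller range. It held 58.9, 55.8 and 59.2 CPM at 0.01 nM, 91.01, 83.1 and 90.2 at 0.2 nM and 135, 145 and 147 at 3 nM. No library of one dose overlapped another there. By 16 h neighbouring doses overlapped, at 53.99 ± 2.55, 58.2 ± 3.54 and 62.01 ± 1.58 CPM (SD, n = 3). The change from 1 to 16 h was -0.86 ± 0.06 at 0.01 nM, -0.88 ± 0.05 at 0.2 nM and -1.19 ± 0.04 at 3 nM.

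DBP, the PAR bZIP factor whose RNA follows the activators most directly, was alone in being called lower from 1 to 2 h at all doses. Its doses ended furthest apart at 24 h. From 1 to 4 h it fell at all doses, with changes of -2.47 ± 0.16 at 0.01 nM, -2.15 ± 0.14 at 0.2 nM and -1.55 ± 0.09 at 3 nM. At 8 h its libraries held 7.42, 10.5 and 7.43 CPM at 0.01 nM, 5.81, 5.52 and 3.12 at 0.2 nM and 4.91, 6.18 and 6.52 at 3 nM, so that 0.01 nM was now the highest. At 24 h they held 40.96, 43.4 and 46.3, 6.87, 8.46 and 7.69 and 1.34, 1.09 and 1.64 CPM. Each dose was without overlap with the next, and 3 against 0.01 nM gave -4.99 ± 0.14 on the log2 scale, which is 31.8-fold lower. Within the shallow set, 0.2 against 0.01 nM gave -2.50 ± 0.12.

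TEF, the other PAR bZIP member, differed between doses early and was low at all doses by 16 h. From 1 to 4 h it fell at 0.01 nM (-0.33) and rose at 0.2 nM (0.19) and 3 nM (0.21). None of these early TEF changes was called by limma on TPM, and that at 0.2 nM was lost without replicate 1 or 3 of 1 h or replicate 3 of 4 h, at values from 0.10 to 0.19. At 3 nM it held 66.6, 70.6 and 62.9 CPM at 4 h, 48.7, 47.8 and 54.3 at 8 h and 10.3, 11.1 and 11.7 at 16 h. At 0.01 nM it held 37.2, 38.1 and 40.9, 27.98, 32.1 and 27.6 and 10.3, 11.8 and 12.4 CPM at the same times. The 16 h levels of all 3 doses lay between 10.3 and 14.8 CPM. The change from 1 to 16 h was -2.09 ± 0.11 at 0.01 nM, -1.83 ± 0.10 at 0.2 nM and -2.38 ± 0.07 at 3 nM.

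BHLHE40, a repressor that is also induced by growth signals and low oxygen, was the member with the largest share of its variation in time. Its libraries held 313, 308 and 304 CPM at 1 h, 137, 146 and 137 at 4 h and 32.2, 42.9 and 35.3 at 16 h at 0.01 nM. At 3 nM they held 423, 429 and 439, 344, 334 and 332 and 59.98, 64.4 and 64.3 CPM. The change from 1 to 16 h was -3.07 at 0.01 nM, which is 8.39-fold lower, and -2.89 and -2.77 at the higher doses. From 1 to 4 h the changes were -1.14, -0.29 and -0.35 in order of dose, and the 4 h levels rose with each dose step without overlap.

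Most members were higher at 0.2 than at 0.01 nM at 2, 4 and 8 h, were mixed at 16 h and were lower at 0.2 nM at 24 h. At 1 h edgeR called 0 of the 10 members between 0.2 and 0.01 nM, against 0.759% of all genes. There, 2 had an unadjusted p under 0.05, limma on TPM called 0, and DESeq2 called 0 of the 6 to which it gave an adjusted p. At 2 h, 6 were higher at 0.2 than at 0.01 nM and 0 were lower, with a median of 0.27. Of the 18040 genes tested, 1784 were called in either direction at 2 h. At 4 h, 8 were higher at 0.2 than at 0.01 nM, against 13.6% of all genes called higher. At 8 h, 9 were higher (background 18.9%), and DBP, the remaining member, was lower at -0.83 ± 0.19. At 16 h, 5 were higher (background 23.5%), PER2 most at 1.70 ± 0.23, and 2 were lower (background 21.4%), DBP at -1.21 ± 0.20 and NR1D1 at -0.60 ± 0.11. At 24 h, 9 were lower (background 24.6%), with CRY1 the remaining one at 0.05 ± 0.07. The median over members of this difference was 0.44 at 4 h, 0.38 at 8 h, 0.24 at 16 h and -0.88 at 24 h, while over all genes tested it lay between -0.01 and 0.01 at each of these times.

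PER1 had the largest difference at 4 h, 1.004 ± 0.07, followed by BHLHE40 at 0.86 ± 0.05. At 24 h the same comparison gave -0.77 ± 0.07 for PER1 and -0.56 ± 0.05 for BHLHE40. PER3 at -1.42 ± 0.06, TEF at -1.15 ± 0.08 and CRY2 at -1.02 ± 0.10 differed most at 24 h after DBP. The 3 nM libraries showed the same turn against 0.01 nM, across the library sets: 9 higher at 4 h (background 27.6%, median 1.04) and 7 lower at 24 h (background 35.7%, median -0.65). However, 8 members were already higher at 3 than at 0.01 nM at 1 h (background 17.5%, median 0.34). The part of the library set in this was not tested.

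At 24 h the step from 0.2 to 3 nM split the members. NR1D1 (-1.004), NR1D2 (-0.35), DBP (-2.49), TEF (-1.03) and PER3 (-0.52) were lower again at 3 nM, 5 of 10 against 25.5% of all genes. PER1 (0.61), PER2 (0.98), CRY1 (0.61) and BHLHE40 (0.65) were higher, 4 of 10 against 30.6%. CRY2 at 0.19 was not called (edgeR adjusted p = 0.0827) but was with no filter on low counts, and PER2 was no longer called by limma on TPM.

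**Figure D3:**
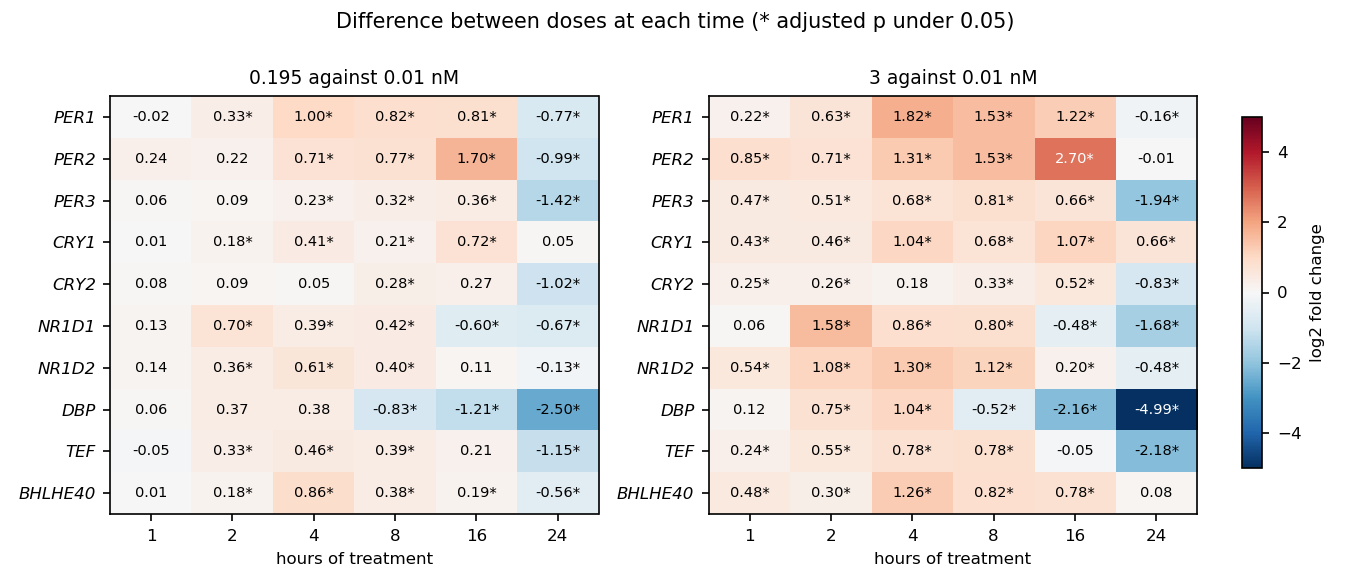
Each cell gives the log2 fold change between doses for 1 gene (rows) at 1 time (columns), for 0.2 against 0.01 nM on the left and 3 against 0.01 nM on the right. Red is higher at the higher dose, blue lower, and a star marks an adjusted p under 0.05. The cells are mostly red at 4 and 8 h and mostly blue at 24 h.

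Between 16 and 24 h the members rose most at the lowest dose. At 0.01 nM, 9 of 10 members rose from 16 to 24 h, against 10.4% of all genes, with a median of 1.87. At 0.2 nM 6 rose (background 4.16%, median 0.51) and 1 fell (background 6.05%), CRY1 at -0.74 ± 0.07. At 3 nM 6 rose (background 9.62%, median 0.27) and 3 fell (background 11.5%), namely CRY1 at -0.47 ± 0.05, DBP and PER3. NR1D1, NR1D2, TEF and BHLHE40 rose at all 3 doses, 4 of 10 against 0.637% of all genes. This pair of times was chosen after the values had been seen.

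The rise of PER2 was 2.56 ± 0.20 at 0.01 nM, from 2.55, 1.94 and 1.26 CPM to 12.9, 11.3 and 10.5 CPM. Leaving out a library at a time gave it between 2.36 and 2.83. At the higher doses the change of PER2 was not called (-0.13 and -0.15). TEF changed by 2.45 ± 0.10 at 0.01 nM, 1.09 ± 0.11 at 0.2 nM and 0.33 ± 0.08 at 3 nM. DBP changed by 2.26 ± 0.13 at 0.01 nM, 0.96 ± 0.20 at 0.2 nM and -0.58 ± 0.22 at 3 nM. The fall of DBP at 3 nM was lost without replicate 1 or 2 of either 16 h or 24 h at that dose, with values from -0.64 to -0.44, with no filter on low counts (adjusted p = 0.0576) and with limma on log2(TPM + 0.5). PER3 changed by 2.24, 0.46 and -0.36 in order of dose, of which the last pair was not called by limma on TPM, nor were the rise of TEF and the fall of CRY1 at 3 nM. NR1D1 rose by 1.98 ± 0.08 at 0.01 nM, 1.91 ± 0.09 at 0.2 nM and 0.79 ± 0.07 at 3 nM. The difference between 0.2 and 0.01 nM in this step was called for 9 members, all lower at 0.2 nM (background 4.57%), the one not called being NR1D1 at -0.08 ± 0.13.

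**Figure D4:**
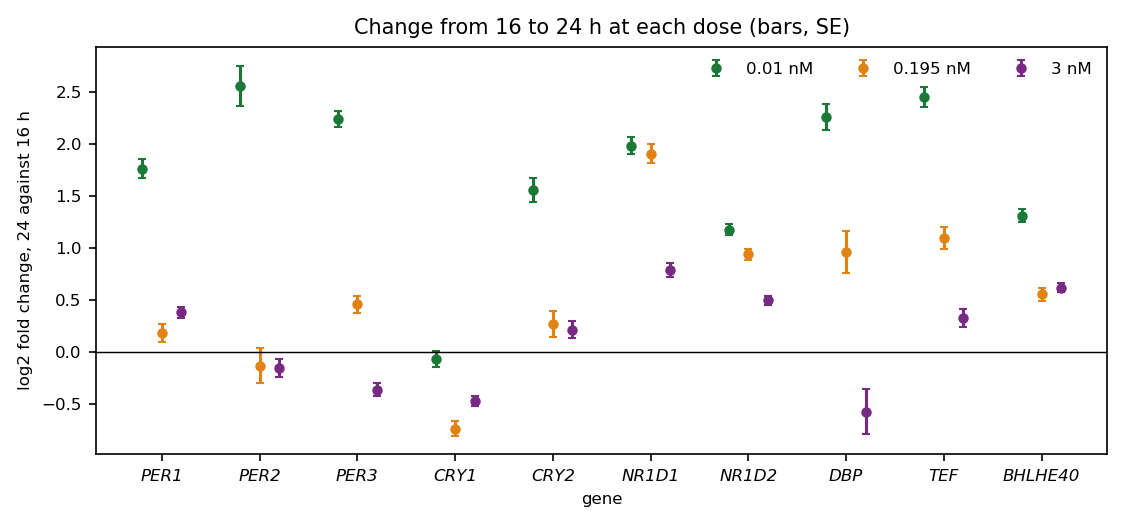
Points are log2 fold changes of 24 against 16 h for each clock gene at each dose, with bars for the SE of the fit. The 0.01 nM points lie above those of 3 nM in every gene, and CRY1 has no point above 0.

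Against untreated cells (the mean of both set means), the members at 24 h were above at 0.01 nM in 6 of 10 (background 21%) and below in the other 4 (background 22.2%), which were BHLHE40, PER1, CRY1 (-0.64) and PER2 (-0.38). Of the 6 above, PER3, CRY2 and NR1D2 had libraries that overlapped those of set 2. Their means were 99.5, 26.1 and 121.89 CPM, against 97.8, 25.5 and 123.25 in set 2. Set 2 was above set 1 in each, by 0.42, 0.37 and 0.29 on the log2 scale, so that these calls rest on set 1. The PER2 call was lost with limma on TPM and against set 1 alone, where PER2 was at 0.027. At 0.2 nM 8 were below (background 31.2%) and at 3 nM 9 were below (background 36%). DBP at 24 h was 0.80 ± 0.08 at 0.01 nM, -1.71 ± 0.12 at 0.2 nM and -4.19 ± 0.13 at 3 nM. Its untreated libraries held 24.2, 22.2 and 25.9 CPM in set 1 and 25.2, 26.00 and 27.01 in set 2, all below the 0.01 nM libraries at 24 h and all above those of the higher doses. PER1 (-1.35, -2.12 and -1.51 in order of dose) and BHLHE40 (-1.93, -2.50 and -1.85) were below untreated at every dose. At 1 h and 3 nM all 10 were above untreated (background 22.6%), from 0.16 for CRY1 to 0.85 for PER2. Against set 2 alone, which shares the depth of the 3 nM libraries, 8 of 10 passed at 1 h and 3 nM. In that comparison 4843 of the 18040 genes tested were called in either direction. NR1D1 was then highest at 0.54, and PER2 was at 0.44. CRY1 at 0.06 and DBP at 0.14 no longer passed (edgeR adjusted p = 0.359 and 0.226).

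The values on the TPM scale were not the same as on the count scale. For the 18 comparisons of each member with untreated, the change in log2(TPM + 0.5) was set against the log2 change in counts. The first minus the second had a median of 0.13 and ran from -0.29 to 0.90. The upper end was PER2 at 16 h and 0.01 nM (-2.04 and -2.94). Its mean there was 0.51 TPM, about the size of the added 0.5, which makes such a change smaller. For PER1 at 1 h and 0.01 nM the TPM rose from 83.5 ± 12 (set 1) and 90.8 ± 4.09 (set 2) to 136 ± 14.6 (SD, n = 3), a change of 0.64 on the log2(TPM + 0.5) scale, while on counts it was 0.18 ± 0.05, and 0.11 without a call against set 2 alone. From 1 to 2 h at 0.01 nM PER1 had opposite signs on the 2 scales, -0.65 in TPM, which passed, and 0.10 in counts, which did not. In the annotation 9 of the 10 members, all but CRY2, overlap another gene, for example NR1D1 with THRA and DBP with SPHK2 on the opposite strand. The kit marks strand, but how the counting used it is not stated in the labels.

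The other clock genes had a smaller range over time. Of 22 other clock genes in the file 19 were tested, and 18 of these passed the time test, 18 the dose test and 15 the dose-by-time test, where the shares over all genes were 89.8%, 82.5% and 70.4%. Their median range over times was 0.63, as for all genes tested. A range of at least 1 log2 unit was found in 4 of 19, against 24.6% of all genes, so that this count does not stand out. The 5 with the widest range were BHLHE41 (3.09), NFIL3 (1.80), ARNTL (1.18), HLF (1.13) and RORB (0.99). HLF, a PAR bZIP factor, and RORB, a ROR receptor, had group means from 0.04 to 1.83 and from 0.21 to 1.39 CPM, some of them under the 0.536 CPM that 3 counts make in the shallowest library.

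BHLHE41, the paralogue of BHLHE40, was lower at 24 h with each dose step. Its libraries held 52.1, 48.1 and 53.3 CPM at 0.01 nM, 11.4, 14.96 and 13.96 at 0.2 nM and 3.39, 3.37 and 4.21 at 3 nM, against 69.7, 62.1 and 59.4 and 58.4, 68.5 and 63.8 in the untreated sets. ARNTL, the activator that NR1D proteins repress, went the other way: at 0.01 nM it held 13.6, 17.8 and 14.9 CPM at 1 h, 25.1, 27.1 and 26.8 at 16 h and 13.4, 12.96 and 10.5 at 24 h. At 3 nM it held 35.9, 40.6 and 38.3 CPM at 16 h and 32.2, 36.7 and 32.99 at 24 h. From 16 to 24 h ARNTL changed by -1.09 ± 0.10 at 0.01 nM, -0.57 ± 0.08 at 0.2 nM and -0.17 ± 0.06 at 3 nM.

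NFIL3, a repressor that competes with DBP and TEF for the D-box, was higher with each dose step at 24 h. From 1 to 24 h it fell at 0.01 nM, by 0.40 on the log2 scale, and rose at 0.2 nM (1.75) and 3 nM (2.55). At 24 h its libraries held 14.9, 13.3 and 15.8 CPM at 0.01 nM, 57.7, 59.6 and 65.04 at 0.2 nM and 126, 127 and 117 at 3 nM, against 20.1, 19.7 and 21.1 and 14.6, 14.2 and 15.5 untreated. Its order of doses at 24 h was thus the reverse of that of DBP and TEF. ASNS and TRIB3 were higher at 3 than at 0.01 nM at the same time, across the library sets. The difference was 1.34 ± 0.05 for ASNS and 3.38 ± 0.07 for TRIB3.

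**Figure D5:**
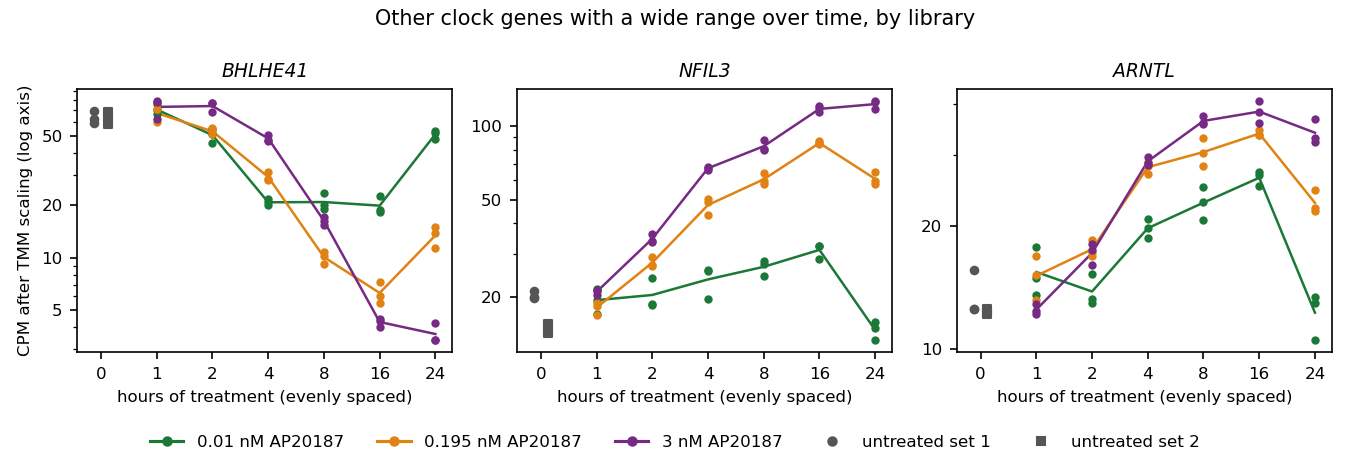
Panels show CPM after TMM scaling (log axis) of BHLHE41, NFIL3 and ARNTL against hours of treatment (evenly spaced), with points for single libraries, lines for means of 3 libraries at each dose and grey symbols for the untreated sets. At 24 h BHLHE41 is lower and NFIL3 higher with each dose step, and ARNTL is highest at 16 h and lower at 24 h at each dose.

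Among themselves the members differed in how alike their profiles were, given as Pearson correlations of log2 CPM over the 18 treated group means, which share doses, times and the library sets. PER3 was most like CRY2 (r = 0.951) and TEF (0.948), and PER1 was most like BHLHE40 (0.928) among the members. NR1D1 and NR1D2 were closest to each other (0.844). CRY1 was the least like member for 8 of the other 9 genes, with its lowest value against DBP (-0.211). Of all other genes tested, the most alike were JUNB for PER1 (0.969), ZC3H12A for BHLHE40 (0.969), ACBD7 for DBP (0.963), FLT3LG for TEF (0.946) and PER3 (0.933), and RP11-177H13.2 for PER2 (0.943). For CRY2 it was CACNG6 (0.942), for CRY1 SOCS6 (0.938), for NR1D1 ADIRF-AS1 (0.923) and for NR1D2 USP33 (0.866).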

How the data were processed

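RNA of 60 U2OS Dmr-PERK wells was sequenced with a strand-specific kit, per the labels' protocols. The authors deposited estimated counts and TPM (abundance per transcript length and depth) per gene; Salmon 0.9.1, FastQC 0.11.5 and the build GRCh38 are named in the submitters' processing notes, with no role given. Of the nonzero estimated counts 54.2% were whole within 1e-06, and they were rounded before testing. Of the 57665 gene identifiers 99.0% matched GENCODE 29.

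Counts were scaled by TMM and filtered by filterByExpr, which left 18040 genes. They were tested with edgeR 4.0.16 (R 4.3.3) by the quasi-likelihood F test with 20 group means and 40 residual degrees of freedom. Time (averaged over doses), dose (averaged over times) and dose by time were tested together over all groups, and single comparisons as contrasts of that fit. P-values were adjusted by Benjamini-Hochberg over all genes tested, and a call is an adjusted p under 0.05. SE is the size of the log2 fold change divided by the root of F, and is approximate. DESeq2 1.42.0, limma 3.58.1 on log2(TPM + 0.5), other pseudocounts and filters, a replicate block and leaving out each library were the alternatives. The tests were checked on simulated data.

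The members and lists were chosen with earlier results of these data known. All 10 members are named, with the 5 other clock genes of widest range over time and 1 most alike gene for each member. Promoter sequences are from RefSeq, GRCh38.p14, and all 10 members matched.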

Additional observations from a re-analysis of the deposited data

Results flagged for a closer look

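The change from 1 to 24 h differed between 3 and 0.01 nM in 10 of 10 members by the test of that difference (edgeR, adjusted over all genes tested, of which 59.3% were called). The call of CRY1 was lost with no filter on low counts (adjusted p = 0.061) and with DESeq2 (0.0529), and that of PER1 with limma on log2(TPM + 0.5) and no filter (0.0602). Each value is the change at 3 nM minus the change at 0.01 nM on the log2 scale, so that the library set of a dose, where it adds a constant, drops out. The difference was -5.11 for DBP, -2.42 for TEF, -2.41 for PER3, -1.73 for NR1D1, -1.08 for CRY2 and -1.01 for NR1D2. It was -0.86 for PER2, -0.40 for BHLHE40 and -0.38 for PER1, and CRY1 alone was positive at 0.23. Within the shallow set, 0.2 against 0.01 nM differed in 9 of 10, with CRY1 not called at 0.04 (edgeR adjusted p = 0.831), against 38.2% of all genes, and gave -2.56 for DBP, -1.48 for PER3 and -1.10 for TEF.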

How the results depend on the processing

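Libraries of 5598803 to 28436445 counts limit the lowest genes, since 3 counts correspond to 0.536 CPM in the shallowest library. Every test-based count over the members kept its side of 1.5 times its value under the other normalization, tool, filters and pseudocounts, except the number of members with a range over doses of at least 1 log2 unit. That number was 1, and it became 0 with limma on log2(TPM + 0.5), with or without the filter, on log2(TPM + 1), and with the 2 lower doses alone, 3 without the 1 h libraries and 2 without those of 24 h. The causes were not tested, other than that fewer doses or times enter the last 3. With the 2 lower doses alone the median shares of time, dose and dose by time were 83.7%, 1.47% and 12.9%, and on log2(TPM + 0.5) those of dose and dose by time were 4.59% and 21.4%. Leaving out each library in turn kept the median share of dose between 6.64% and 7.30%, and the 142 calls between doses between 140.0 and 143.

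The change of CRY1 from 1 to 24 h at 3 nM minus that at 0.01 nM turned from positive to -0.12 with limma on TPM under each pseudocount and filter, and was not called there, nor with DESeq2 or with no low-count filter. For 0.2 minus 0.01 nM, not called in counts, it turned to -0.21 on log2(TPM + 0.5), with or without the filter, and log2(TPM + 1), and to -0.22 on log2(TPM + 0.1). PER2 at 24 h and 0.01 nM turned from below untreated to 0.027 against set 1 alone. The change of PER2 from 16 to 24 h at 0.2 nM, which was not called, turned to 0.24 on log2(TPM + 0.5) with or without the filter, 0.28 on log2(TPM + 0.1) and 0.19 on log2(TPM + 1). Leaving out a library at a time gave it between -0.29 and 0.013. The change of PER1 from 1 to 2 h at 0.01 nM, not called in counts, turned to -0.65 on log2(TPM + 0.5), with or without the filter, and log2(TPM + 1), and to -0.66 on log2(TPM + 0.1). The rise from 16 to 24 h at all 3 doses held for 3 members in place of 4 with limma on TPM. Over all genes, limma on TPM called 674 to 823 genes from 16 to 24 h at 3 nM in place of 3804, 777 to 921 in place of 1843 at 0.2 nM, and 2524 to 2780 in place of 4263 at 0.01 nM. For 0.2 against 0.01 nM at 1 h, 137 genes were called, against 246 with DESeq2, 248 with no filter and 306 with limma and no filter, and at 2 h 1784 were called, against 996 to 1145 with limma on TPM.

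With the replicate number as a block the same numbers of calls were found (30 changes from 1 h, 142 between doses and 154 against untreated), and no named result changed its call. The labels do not say that a number marks a shared culture or day, so the numbers were not taken to pair the samples. The correlations that follow cannot decide whether same-numbered libraries share a source. Deviations from the group means had a median correlation of 0.017 (-0.387 to 0.385) between same-numbered libraries and -0.00923 between others, with 18.4% and 10.2% of pairs over 0.1. Of 60 libraries 32 correlated best with their own number, out of 3 numbers, a hint from the data and not from the design.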
